A study of Homo sapiens with 5 samples.

Results

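The BG4 regions of chromosome 17 are described here, 240 of the 3554 regions of the genome (6.75%) that carried a peak of at least 2 of 4 pull-downs. BG4, an engineered antibody fragment, recognises G-quadruplexes, and was used on cross-linked, sonicated chromatin of LNCaP, an established androgen-responsive line from a prostate cancer metastasis. The series has 4 BG4 replicates and 1 input of the same untreated line, with no second condition, so replicates are compared with each other and stretches of the chromosome with each other. The labels do not say that replicates are separate cultures, and spread between them may be technical. Members were found by merging peaks of the 4 deposited lists that overlapped by 1 bp or more and keeping regions with peaks of at least 2 lists. Positions are in hg19, and the short arm was taken to end at 24 Mb.

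A G-quadruplex forms where guanines from 4 nearby runs stack in planar layers, so sequences with closely spaced runs of G can fold this way. Such sequences are common in GC-rich promoters, and in chromatin BG4 signal is known to concentrate at open, nucleosome-depleted promoters. Chromosome 17 is among the most gene-dense human chromosomes, and its short-arm band that holds the dense stretch described below carries many short, closely packed housekeeping genes.

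To show what such letters look like in that gene run, bases upstream of gene starts were read from the RefSeq promoter table (GRCh38.p14) for genes listed from ACADVL, a mitochondrial fatty acid dehydrogenase, to CNTROB, a centriole protein. Textbook gene order places these genes in the dense stretch. Because the table is on another build, no BG4 region was assigned to any of these genes. The search was for 4 runs of 3 or more G, with 1 to 7 bases of any kind between runs, on either strand. In each sequence the capitals mark the match.
POLR2A: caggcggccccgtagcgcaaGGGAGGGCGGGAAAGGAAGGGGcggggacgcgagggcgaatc
KDM6B: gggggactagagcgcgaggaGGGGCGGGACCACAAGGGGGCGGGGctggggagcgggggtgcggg
EIF5A: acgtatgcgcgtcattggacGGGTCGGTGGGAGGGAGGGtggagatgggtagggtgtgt
ELP5: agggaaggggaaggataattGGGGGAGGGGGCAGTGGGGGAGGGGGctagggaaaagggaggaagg
CLDN7: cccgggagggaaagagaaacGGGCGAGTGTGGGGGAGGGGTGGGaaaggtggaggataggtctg
SHBG: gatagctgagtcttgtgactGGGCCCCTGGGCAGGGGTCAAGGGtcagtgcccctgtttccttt

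POLR2A encodes the largest subunit of RNA polymerase II. The 62 bases printed for it lie 30 to 91 bases before its start, and the same letters lie 26 to 87 bases before the start of its neighbour ZBTB4, a zinc finger protein of methylated DNA, which runs the other way. KDM6B is a demethylase of lysine 27 of histone H3, EIF5A a translation factor that carries hypusine, ELP5 a subunit of the Elongator complex, CLDN7 a tight junction protein and SHBG the carrier of sex hormones in blood. Of 54 protein-coding genes in the run, 42 had an entry in the promoter table. A match within the 250 bases before a start was present for 19 of the 42 (45.2%), against 34.7% of all 15860 protein-coding genes with an entry. A match is a description of letters and shows neither a folded structure nor BG4 binding.

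In every list chromosome 17 held far more peaks than its length gives. Replicate 1 had 472 peaks there, replicate 2 had 118, replicate 3 had 247 and replicate 4 had 138, between 6.44% and 7.29% of each list on chromosomes 1 to 22, X and Y. Per Mb, this was 2.72, 2.68, 2.53 and 2.40 times the density of all those chromosomes together in replicates 1 to 4 (2.58 ± 0.15, SD, n = 4). The density of the 240 regions was 2.99 per Mb, placing it 3 of 24 after chromosomes 19 and 22.

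Counted against genes, the excess was much smaller. The RefSeq gene table (GRCh38.p14), used only for gene numbers and gene order, lists 1169 protein-coding genes on chromosome 17, or 14.5 per Mb of the length spanned by peaks, 2.18 times the overall gene density. Chromosome 17 had 20.5 regions per 100 protein-coding genes, against 17.7 over all chromosomes, a ratio of 1.16 where the ratio per Mb was 2.52. By this measure it ranked 7 of 24 rather than 3. In the single lists, peaks per gene on chromosome 17 were 1.25, 1.23, 1.16 and 1.10 times the overall value in replicates 1 to 4 (1.19 ± 0.07, SD, n = 4). All 4 lists lay above 1, with p = 0.125 in a two-sided exact permutation test over the lists, the smallest p that 4 lists can give. Chromosome 16, just behind chromosome 17 per Mb, had 26.6 regions per 100 genes, and chromosome 19 had 23.5.

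**Figure D1:**
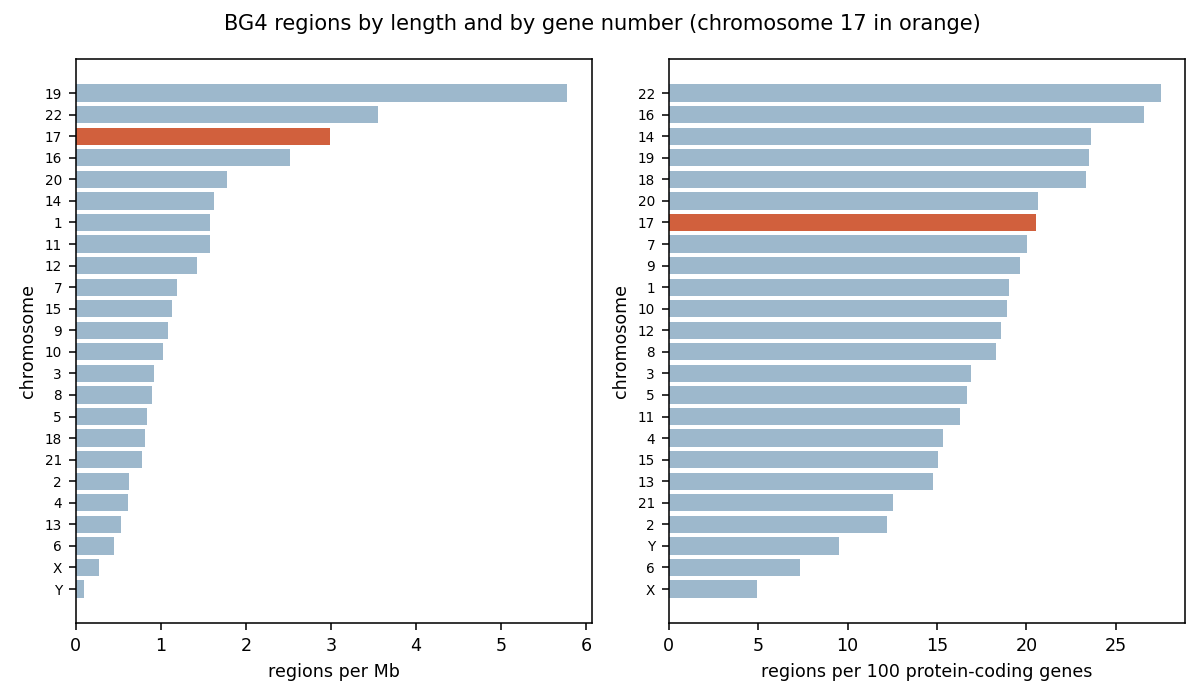
Regions with peaks of at least 2 lists for each chromosome, per Mb of the length spanned by peaks (left) and per 100 protein-coding genes in RefSeq (right), with chromosome 17 in orange. Chromosome 17 ranks 3 of 24 by length, at 2.99 per Mb, and 7 of 24 by gene number, at 20.5 per 100 genes.

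The peaks of chromosome 17 were more numerous but not stronger. The fold is the enrichment at a peak's summit over local background and was taken as the authors deposited it. Over replicates 1 to 4, its median on chromosome 17 was 6.30, 6.17, 6.55 and 6.46. On the other chromosomes the medians were 6.41, 6.73, 6.57 and 6.56. The ratio lay below 1 in 4 of 4 lists, at 0.970 ± 0.036 (SD, n = 4; two-sided exact permutation test, p = 0.125, the smallest possible), and in replicate 3 it was 0.997. Peak width hardly differed, with list medians of 319 to 346 bp on chromosome 17 and 322 to 346 bp elsewhere. Median summit reads, recovered from the deposited fold and p, were 14 to 16 in both. These are small numbers, and the weakest summit on the chromosome held 6 to 8 reads depending on the list, so single weak peaks are uncertain by counting error alone. The genome-wide background at a summit was 0.871, 0.633, 0.752 and 0.724 reads in replicates 1 to 4, highest in replicate 1, the longest list. The peak lists do not hold the number of reads sequenced, so the depth of the libraries is unknown.

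Peaks of chromosome 17 were shared between lists about as often as those elsewhere, or slightly less. The share of chromosome 17 peaks in regions of at least 2 lists was 49.4%, 92.4%, 81.8% and 87.0% in replicates 1 to 4. For peaks elsewhere it was 53.1%, 93.0%, 84.2% and 90.3%. The ratio was 0.964 ± 0.027 (SD, n = 4), below 1 in every list. The two-sided exact permutation test gave p = 0.125, the smallest possible. A peak is shared only through a peak of another list, so the 4 shares depend on each other. The test takes them as independent and decides nothing here. Merging gave 551 regions on the chromosome, of which 240 (43.6%) were called in at least 2 lists, against 47.3% of all 7520 merged regions of the genome. Of the 240, 122 (50.8%) were called in at least 3 lists, where the share over all 3554 regions was 54.0%. All 4 lists called 62 of them (25.8%), against 24.9% over the genome. These shares are near the background and are not read as a result about chromosome 17.

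Membership followed the length of the lists. Replicate 1 had a peak in 233 of the 240 regions, replicate 3 in 202, replicate 4 in 120 and replicate 2 in 109. Of the 118 regions with exactly 2 lists, 77 had the pair of replicates 1 and 3, the 2 longest lists, and 2 had replicates 2 and 3. Just outside the rule lay 311 regions of a single list, 239 of them from replicate 1. In that list the median fold was 5.60 for single-list regions, 6.53 for those with 2 lists and 9.51 for those with all 4. The number of regions fell to 128 without replicate 1 and to 157 without replicate 3.

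Both arms were occupied. The short arm held more regions per Mb with the 0.8 Mb dense stretch described below counted in it, and fewer without it. With that stretch the short arm held 80 regions in 24 Mb, or 3.33 per Mb, and the long arm 160 in 57.01 Mb, or 2.81 per Mb. Peaks per Mb on the short and the long arm were 6.38 and 5.60 (replicate 1), 1.96 and 1.25 (replicate 2), 3.63 and 2.81 (replicate 3), and 1.79 and 1.67 (replicate 4). With the stretch, the short arm was higher in 4 of 4 lists, by 1.14, 1.57, 1.29 and 1.08 times in replicates 1 to 4 (1.27 ± 0.22, SD, n = 4; two-sided exact permutation test, p = 0.125, the smallest possible). Few peaks lay next to the split at 24 Mb. With 22 to 26 Mb left out, the log2 ratio of peaks per Mb, short over long arm, was 0.41 ± 0.25 (SD, n = 4). It was 0.33 ± 0.24 with this part counted. Leaving out this part together with the stretch was not tried. Without the stretch, the rest of the short arm had 2.59 regions per Mb, below the 2.81 of the long arm. Its peaks per Mb were then 0.955, 1.32, 1.01 and 0.828 times those of the long arm in replicates 1 to 4, higher in 2 of 4 lists (1.03 ± 0.21, SD, n = 4; two-sided exact permutation test, p = 0.875). The stretch was chosen for its density and left out of the short arm only, which lowers the ratio by construction. The fullest window of the long arm stayed in, so these values do not compare the arms without their densest parts. Gene density was alike on the arms, at 14.3 protein-coding genes per Mb on the short arm and 14.5 on the long arm. Per 100 genes there were 23.3 regions on the short arm and 19.4 on the long arm, and peaks per gene were 1.28 ± 0.22 times higher on the short arm (SD, n = 4). The rest of the short arm outside the stretch had 20.7 regions per 100 genes.

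The arms differed in local background, the value that the fold of a peak is taken over, given here relative to the lowest background of the list. At some regions it was the same in every list, as from 42852940 to 42853548, at 1.73 in all 4. The series has 1 input, so the 4 lists are not taken as independent measures of background. The median background over short-arm peaks was 1.81, 1.92, 1.92 and 2.05 in replicates 1 to 4, and over long-arm peaks 1.68, 1.71, 1.71 and 1.71. Without peaks whose background was at least 3 times the genome level, the short arm had 1.03 times the regions per Mb of the long arm, where it had 1.19 times with them. The log2 ratio of peaks per Mb was then 0.15 ± 0.26 (SD, n = 4), with p = 0.375 in the two-sided exact permutation test, against 0.33 ± 0.24 with all peaks. These peaks include some of the dense stretch, where 9 of 20 regions were lost with them. With both the stretch and these peaks left out, the log2 ratio was -0.09 ± 0.31 (SD, n = 4; two-sided exact permutation test, p = 0.625). The part of background in the difference between arms was not tested apart from this. Median fold gave no order of the arms, with short-arm medians of 6.42, 5.83, 6.54 and 6.56 in replicates 1 to 4 and long-arm medians of 6.20, 6.38, 6.56 and 6.38.

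**Figure D2:**
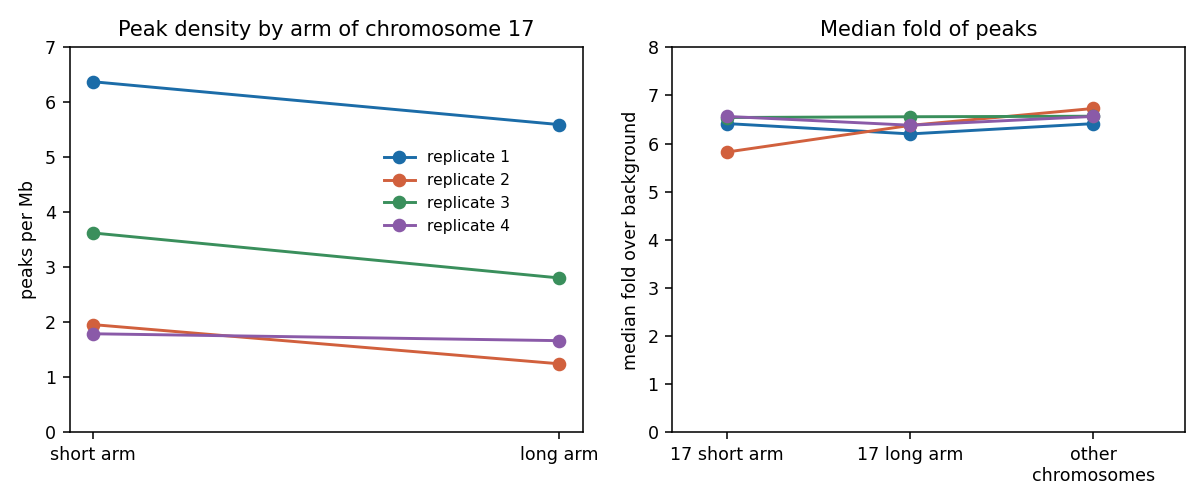
Left, peaks per Mb on the short and long arm of chromosome 17 in each of the 4 lists, higher on the short arm in all 4 with the dense stretch counted, and in 2 of 4 without it. Right, the median fold over background of the short-arm, long-arm and other-chromosome peaks of each list, which lies between 5.83 and 6.73 throughout.

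Along the chromosome, regions were spread unevenly, with long empty stretches. Of 82 windows of 1 Mb, 20 (24.4%) held 5 or more regions, against 6.38% of 3105 windows of the genome. These 20 windows, 6 on the short and 14 on the long arm, held 147 of the 240 regions. No region lay in 19 windows (23.2%), where the share over the genome was 55.6%. A neighbour within 10 kb was present for 43 regions (17.9%), against 11.7% of all regions of the genome. The median gap between neighbouring regions was 126 kb on this chromosome and 222 kb on the others. A higher density of regions by itself gives more dense windows, fewer empty ones, more near neighbours and shorter gaps. These values are thus not read as clustering beyond the density of chromosome 17. The number of dense windows depended strongly on the lists, and was 4 without replicate 1 and 6 without replicate 3.

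On the short arm, the dense windows were those that start at 1, 2, 3, 7, 17 and 21 Mb, with 7, 6, 5, 20, 6 and 6 regions. On the long arm, dense windows lay from 27 to 48 Mb and from 61 to 81 Mb. The fullest long-arm window, from 79 to 80 Mb, held 10 regions, 3 of them called in all 4 lists. Replicates 1 to 4 had 22, 4, 9 and 6 peaks in it. The windows from 38, 46, 73 and 80 Mb held 8 regions each. In the window from 46 Mb all lists had at least 5 peaks (12, 8, 6 and 5 in replicates 1 to 4), while in the window from 73 Mb the numbers were 18, 3, 10 and 5.

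The longest stretch with no region ran from 8534916 to 14203992 (5.67 Mb), on the short arm. Replicates 2 and 4 had no peak at all in it, replicate 1 had 8 and replicate 3 had 3. The next ran from 49198617 to 53315638 (4.12 Mb), with 4 peaks in replicate 1 and none in the other lists. Another, from 67323505 to 71308076 (3.98 Mb), lies in the part of 17q known for the gene desert around SOX9, a transcription factor of cartilage and gonad development. It held 6 peaks of replicate 1, none of replicate 2, 2 of replicate 3 and 1 of replicate 4, none of which met in a common region.

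**Figure D3:**
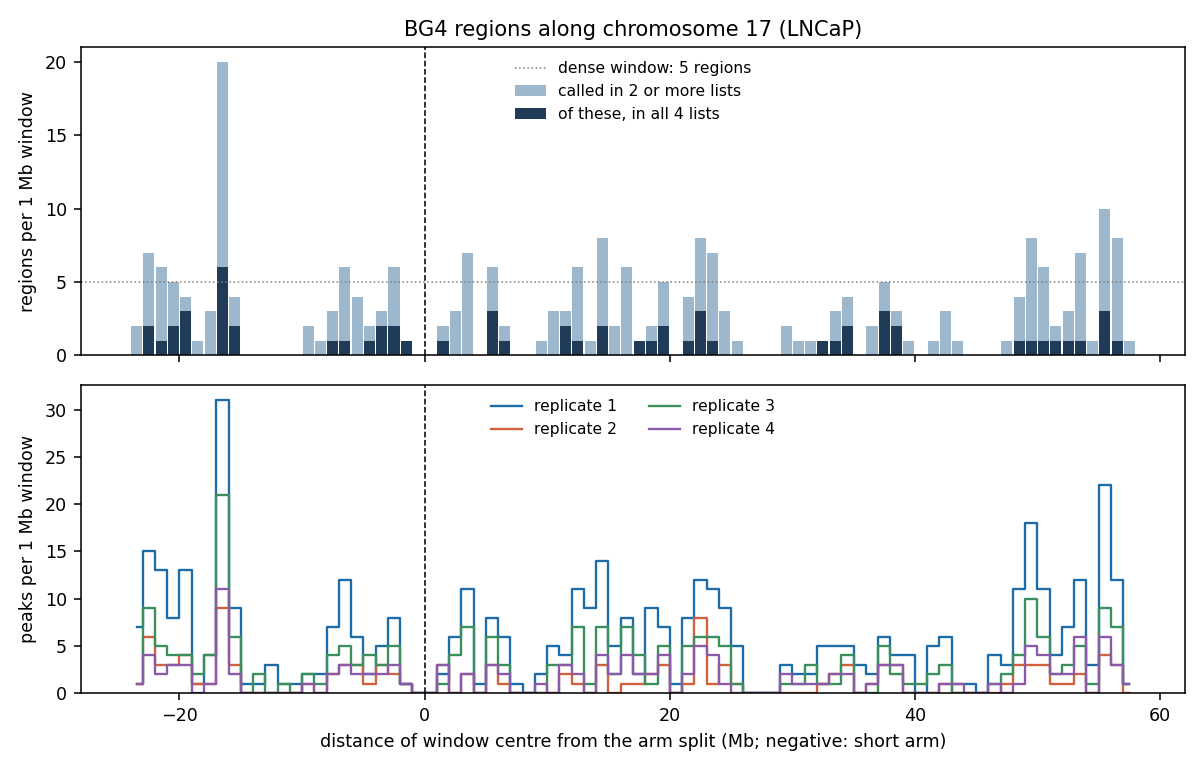
Number of regions (top) and of peaks of each list (bottom) in 1 Mb windows of chromosome 17, against the distance of the window centre from the arm split. Dark bars are regions called in all 4 lists. The short-arm window with 20 regions stands above all others on the chromosome, of which the highest holds 10, and it is the fullest in each list.

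The dense stretch from 7.1 to 7.9 Mb held 20 regions, all those of its 1 Mb window. That is 25 per Mb, against 2.59 per Mb over the rest of the short arm. Replicate 1 had 29 peaks there, replicate 2 had 9, replicate 3 had 21 and replicate 4 had 11, between 18.95% and 25.6% of the short-arm peaks of a list in 0.8 of its 24 Mb. The stretch was chosen for its density, so these values describe it and test nothing. On this grid of windows no other of the 3105 held as many, the next having 19. With windows shifted by 0.5 Mb the stretch is divided between neighbours, and the fuller of these held 13 regions where the highest window of the genome held 21. Over 11 alternative settings, the shifted grid included, the window stood alone at the top in 4 and had no fuller window in 7. On the first grid, 3 windows were fuller with lists of equal length, 2 without replicate 3 and 9 without peaks of high background.

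Genes were dense there too, but with all peaks counted the excess of regions was larger than that of genes. The run from ACADVL to CNTROB has 54 protein-coding genes, or 67.5 per Mb, against 12.5 per Mb over the rest of the short arm, a ratio of 5.4 where that of regions per Mb was 9.67. The stretch thus had 37.0 regions per 100 genes. The other 290 genes of the short arm had 60 regions, or 20.7 per 100. Per gene, the stretch had 1.26, 1.27, 1.71 and 1.85 times the peaks of the rest of the short arm in replicates 1 to 4, against 6.78, 6.87, 9.23 and 9.97 times per Mb. The stretch was chosen for its density of regions, so its excess per gene is also a description and tests nothing. The values per gene were not taken without peaks of high background, where 11 regions of the stretch were left. How much of the excess per gene rests on those peaks was not tested. The borders of the gene run are background knowledge and may be off by a gene at either end.

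Peak strength in the stretch showed no common direction across lists. The median peak fold there was 6.84, 4.77, 5.89 and 6.66 in replicates 1 to 4. Over the whole chromosome it was 6.30, 6.17, 6.55 and 6.46 in the same order. The stretch was thus higher in replicates 1 and 4 and lower in replicates 2 and 3, with only 9 peaks in replicate 2. All 4 lists called 6 of the 20, 3 lists called 7 and 2 lists called 7. Regions with all 4 lists thus made up 30% of the stretch, against 24.9% of the genome. Raised background was common. In 9 of the 20 regions (45%) the background reached 3 times the genome level in at least 1 list, against 21.7% on the whole chromosome and 21.5% over the genome. Without such peaks 11 regions were left in the stretch, and without replicate 1 there were 13. The rest of the short arm lost peaks as well, and the stretch stayed far denser than it. The log2 ratio of their peaks per Mb was 3.02 ± 0.29 with all peaks and 2.68 ± 0.36 without those of high background (SD, n = 4).

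Among the 6 regions of the stretch called in all 4 lists, the one from 7790788 to 7791302 had the highest median fold. Replicates 1 to 4 gave folds of 11.3, 5.77, 9.63 and 8.95 on 27, 11, 21 and 19 summit reads. Replicate 2 stood low here and the other 3 lay close together. The 4 summits lay within 88 bp of each other.

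The region from 7518144 to 7518766 was the steadiest, at 7.80, 8.54, 8.01 and 8.55 in replicates 1 to 4 (8.22 ± 0.38, SD, n = 4), with 25 to 30 summit reads. From 7232410 to 7233133 the fold was 8.61, 9.13, 7.77 and 6.28 in the same order. The lists thus agreed on both regions to within 1.45 times.

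Less even was the region from 7835159 to 7835635, with folds of 9.18, 4.77, 9.57 and 6.66 in replicates 1 to 4, where replicate 2 had 9 summit reads. From 7117572 to 7117990 the fold was 7.30, 3.59, 3.92 and 4.87, and from 7210496 to 7211022 it was 5.09, 4.17, 4.79 and 5.12. Apart from replicate 1 at 7117572, with 33 summit reads, the folds of these last regions were low. They lay over a background of 4.01 to 5.12 times and 2.56 to 3.36 times the genome level.

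Of the 7 regions with 3 lists, the strongest ran from 7184660 to 7185110, where replicates 1, 3 and 4 had folds of 9.76, 9.02 and 10.2. It had no peak in replicate 2, although its median fold was above that of all 6 regions of the stretch called in 4 lists. The others with 3 lists lay from 7154974 to 7155869, 7387953 to 7388262, 7461350 to 7461926, 7591483 to 7591793, 7738771 to 7739133 and 7748061 to 7748413. Their median folds ran from 3.84 at 7461350 to 7.65 at 7591483. The 7 regions with 2 lists started at 7137705, 7142779, 7165749, 7486907, 7740024, 7755024 and 7792476. Replicate 1 was a member of each, joined by replicate 3 in 6 of them and by replicate 4 at 7486907, with median folds of 5.72 to 7.44.

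**Figure D4:**
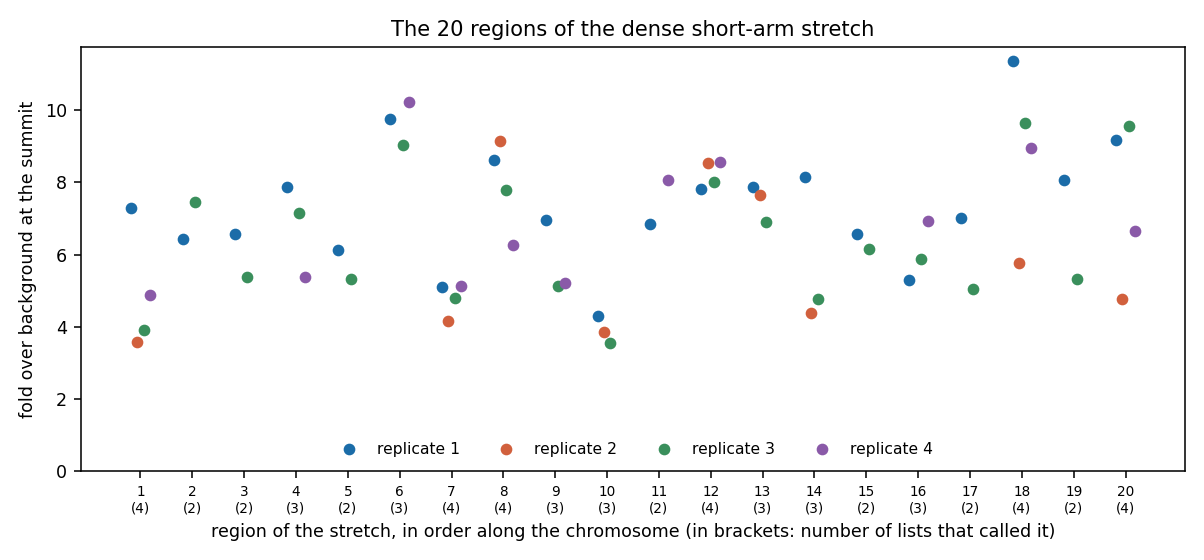
Fold over background at the summit in each list for the 20 regions of the dense stretch, in order along the chromosome, with the number of lists that called the region in brackets. Regions 1, 7, 8, 12, 18 and 20 were called in all 4 lists, and most points lie between 4 and 10.

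Regions packed closely in the stretch: 10 of its 20 had a neighbour within 10 kb, and the median gap was 21.4 kb. Only 890 bp separated the regions that start at 7738771 and 7740024, and 1173 bp those that start at 7790788 and 7792476. At the other extreme, no region was called over the 154819 bp between 7233133 and 7387953.

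The 62 regions called in all 4 lists were spread over the whole chromosome, 24 on the short and 38 on the long arm. That is 30% of the short-arm and 23.8% of the long-arm regions, near the 24.9% of the genome. Without replicate 2, the shortest list, 96 regions were common to the other 3. They were wider (median 540.5 bp) and stronger (median fold 8.28) than regions with 2 lists, at 394 bp and 6.33. A region called in all lists had to pass in the shortest of them, which favours high fold. Its width runs over the merged peaks of 4 lists rather than 2, which favours greater width. Neither difference is read as a result. In the 62 regions the 4 summits lay inside a median of 91 bp, and inside 100 bp in 36 regions (58.1%). On other chromosomes the same values were 92.5 bp and 54.9% of 824 regions. Peaks had to overlap to form a region, which favours summits that lie close, so this closeness is not read as a result.

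The rank of these 62 regions by fold was only partly shared between lists. Spearman's rho over the 62 was lowest between replicates 1 and 2, at 0.42, and highest between replicates 1 and 3, at 0.67. This is a description across regions, which all rest on the same input. Replicate 1 had the highest fold of the 4 in 34 regions. Replicate 2 had the lowest in 28 and replicate 4 in 23. The ratio of the highest to the lowest fold of a region was 1.59 at the median.

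**Figure D5:**
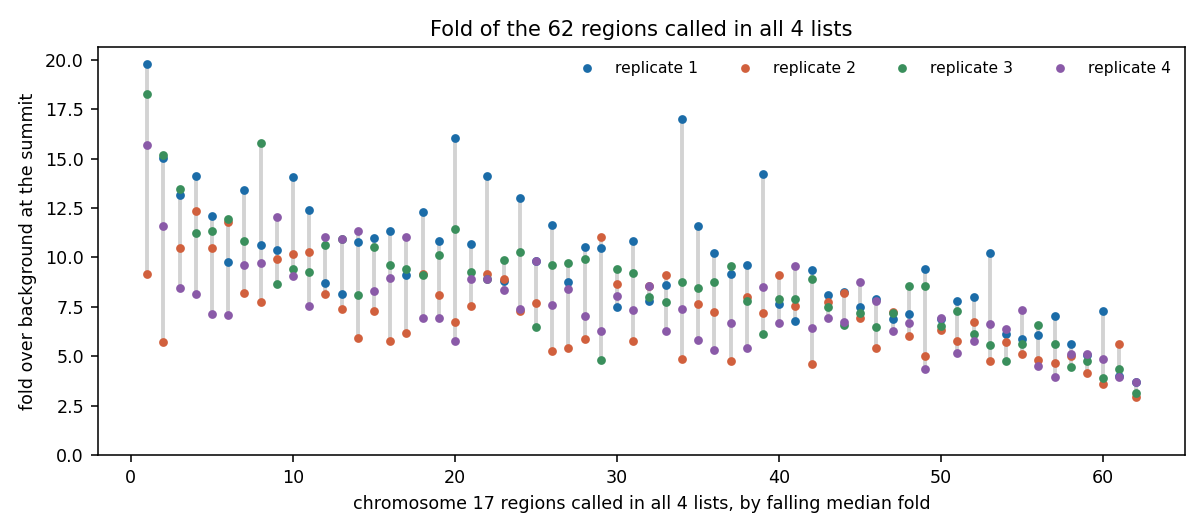
Fold over background in each list for the 62 chromosome 17 regions called in all 4 lists, sorted by falling median fold, with grey bars from the lowest to the highest list. Replicate 1 is the highest in 34 of the 62, and its points reach 19.8.

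The strongest region of the chromosome, ranked by the median over lists of its percentile within the list, lay on the long arm from 61818731 to 61819482. Folds there were 19.8, 9.18, 18.3 and 15.7 across replicates 1 to 4, over a background at the genome level in every list. The summits held 36, 14, 31 and 26 reads and lay within 54 bp. Replicates 1, 3 and 4 were close to each other and replicate 2 lay apart, though its 9.18 was still high within its own list.

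Next was the long-arm region from 36955718 to 36956514, with folds of 15.02, 5.72, 15.2 and 11.6 in replicates 1 to 4. Here replicate 2 was again the lowest, and the summits were spread over 428 bp, the widest among the 15 strongest regions called in all 4 lists. It was followed by the short-arm region from 4613203 to 4614162, at 14.1, 12.3, 11.2 and 8.14, with a background of 3.20 to 3.41 times the genome level.

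From 42852940 to 42853548 the fold was 13.2, 10.5, 13.5 and 8.44 in replicates 1 to 4, and from 47866288 to 47866809 it was 12.1, 10.5, 11.3 and 7.15. In both, replicate 4 was the lowest and the background stayed under 2 times the genome level. The short-arm region from 3657787 to 3658561 had folds of 9.78, 11.8, 11.96 and 7.11 over a background of 4.18 to 6.72 times, and had the most reads of the 15, 35 to 66 at the summit.

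The other 9 of the 15 strongest regions called in all 4 lists had median folds of 9.27 to 10.2. On the short arm they lay from 3539476 to 3540321, where the 4 summits fell within 9 bp, from 7790788 to 7791302 inside the dense stretch, and from 20946177 to 20946931. On the long arm they lay from 29814615 to 29815150, 57184055 to 57184462, 62207387 to 62207835, 72869032 to 72869653, 74722495 to 74722990 and 79980367 to 79981204. Their lowest fold in any list was 5.77 and their highest 15.8, at 79980367 in replicate 3. In all, 5 of the 15 were on the short and 10 on the long arm, in the proportion of the arms' region counts, and the dense stretch supplied 1. Regions with fewer than 4 lists were outside this ranking, and some had a higher median percentile than the last of the 15, at 84.3. One was the region of the stretch from 7184660 to 7185110, at 86.9 in 3 lists.

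Lists disagreed most on the region from 35715971 to 35716642, among those called in all 4. Replicate 1 had a fold of 16.997 there, and replicates 2, 3 and 4 had 4.85, 8.76 and 7.38, on 34, 9, 19 and 13 summit reads. Replicate 1 stood clear of the other 3.

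At the inner end of the short arm, 3 regions had a very high background. From 21903116 to 21903447, 21906061 to 21906807 and 22020565 to 22020856, the background was 22.5 to 43.3 times the genome level, and the folds were low, 2.27 to 5.63, on 45 to 143 summit reads. The last of these held the most reads of any region on the chromosome and was called in all 4 lists. Nowhere else on the chromosome did the background of a region exceed 7.22 times.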

How the data were processed

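DNA bound by BG4 in LNCaP chromatin was sequenced in 4 replicates with 1 input. The processing notes of the submitters name MACS2 2.1.1, SAMtools 1.11, bcl2fastq 1.8.4 and Bowtie2 2.2.5 and the build hg19, without settings. The authors deposited 1 peak list per replicate, not pooled, each with a fold ratio over local background, −log10 p, −log10 q and a score per peak. The deposited score was not used. The lowest deposited −log10 q on chromosome 17 was 1.38 to 1.83 by list.

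Whole summit reads and the background were recovered from the deposited fold (a ratio with a pseudocount of 1) and −log10 p, within 0.001 for 100% of peaks. Density used the length spanned by peaks, with assembly gaps left in. The arms were split at 24 Mb, and a dense window held 5 or more regions. Lists were compared by exact permutation (sign flips of log2 ratios). A p under 0.05 cannot be reached with 4 lists, whose smallest is 0.125. Regions named are those from 7.1 to 7.9 Mb, the 15 of highest median fold percentile among those in all 4 lists, and the one of widest fold range; those at the highest background were added after their values were seen. Members and lists were chosen with earlier results of these data known. No annotation of hg19 was used here, so regions were not assigned to genes or motifs, and the planned promoter and motif shares were not run. Of RefSeq GRCh38.p14, gene numbers, gene order and promoter letters were used. For short and long arm genes, the order was divided before WSB1. Merging, recovery and the permutation test were tested on simulated data. Tools were pandas 2.3.3, numpy 2.4.6 and scipy 1.17.1 under Python 3.11.15, with figures by matplotlib 3.10.9.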

Additional observations from a re-analysis of the deposited data

Results flagged for a closer look

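Of 32 sets of 4 replicate values checked for a replicate far from the other 3, 1 was marked; chance marks about 1 in 20 unselected sets. The median background of chromosome 17 peaks, relative to the lowest background of the list, was 1.86 in replicate 4, against 1.71 in the other 3. Those 3 values were tied, so any other value in replicate 4 would have stood apart from them. The rate of 1 in 20 does not hold for tied values, and the mark is not read as a result.

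Peaks were also called on GL000258.1, the alternate haplotype contig of the 17q21.31 inversion region, which lies outside the chromosome 17 coordinates. Replicate 1 had 8 peaks there, replicate 2 had 2, replicate 3 had 4 and replicate 4 had 1. They are given because the contig is in no comparison above, and replicate 1, with the most peaks there, was also the longest list. A peak near the start of the contig, from 9444 to 10097 in replicate 1, was present in every list, with folds of 7.71, 5.51, 6.28 and 5.80 in replicates 1 to 4. On chromosome 17 itself the window from 44 Mb held no region.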

How the results depend on the processing

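Leaving out peaks of at least 3 times the genome background, and leaving out the stretch from 7.1 to 7.9 Mb, were chosen after seeing the data. The stretch was left out of the short arm alone, which lowers the short arm's density by construction. Regions on the chromosome numbered 240, and 122 in at least 3 lists, 110 with lists of equal length and 128 to 220 with 1 replicate left out. Dense windows numbered 20, and 11 at a −log10 q of at least 5, 1 with lists of equal length, 3 for regions in at least 3 lists, 6 with a minimum of 8 regions and 4 to 20 with 1 replicate left out. The dense stretch had 20 regions, and 13 in at least 3 lists, 10 with lists of equal length, 11 without peaks of high background and 13 to 20 with 1 replicate left out. Regions in all lists numbered 62, and 40 with lists of equal length and 63 to 96 with 1 replicate left out. Fewer peaks or lists set these counts by construction. The log2 ratio of peak density, short over long arm, was 0.33 and lay between 0.15 and 0.62 with the stretch counted, but was 0.019 without the stretch and -0.094 without both the stretch and peaks of high background. Regions per Mb, short over long arm, turned from 1.19 to 0.921 and 0.873 under the same settings. The mean log2 ratio of fold, chromosome 17 over others, stayed below 0 (-0.059 to -0.013). At a −log10 q of at least 5 it was -0.013 ± 0.030 (SD, n = 4, two-sided exact permutation test, p = 0.75). With lists of equal length it was -0.045 ± 0.064 (SD, n = 4, two-sided exact permutation test, p = 0.375). Both p lie above 0.125, the value when all 4 lists share a sign, so not every list lay below 0 there. With strength taken as −log10 q in place of fold, the mean log2 ratio was -0.097. The log2 ratio of median fold, short over long arm, was -0.01, and turned to 0.054 by −log10 q, 0.029 without replicate 2 (-0.031 to 0.029 with 1 replicate left out) and 0.0036 without peaks of high background; the cause was not tested. No test passed the threshold under any setting, which 3 or 4 lists cannot do. Of 35 named regions, 30 kept their number of lists at a −log10 q of at least 3, 26 at 5 and 20 with lists of equal length. Overlap of 50% of both peaks does not touch peak density or fold. No paired analysis was possible between groups because only the BG4 samples have lists here; the tests compare stretches of DNA within each list.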
